A study of Rattus norvegicus with 13 samples.

Results

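The 6 arrays described here carry messenger RNA from uninjured axons of rat cortical neurons, and they show how far preparations of the same kind of material differ from each other. They were chosen by title, as the uninjured axon arrays 1 to 6 of 13 arrays in all. The uninjured group has 7 arrays, and the other groups of the series do not enter here. Cortical cells were grown for 13 days in Neurobasal medium with B27 on a compartmentalised microfluidic platform, a device in which axons extend through narrow grooves into a chamber of their own. The axonal material of 3 platforms was pooled for each array, its polyadenylated RNA was amplified in 2 rounds, and the product was hybridised to a GeneChip. The uninjured arrays came from 3 culture batches, but the labels do not say which array belongs to which batch, so some arrays may share a culture and others may not. The labels give no genotype, strain, sex or age of the animals, and they record axotomy only for other arrays of the series.

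The deposited values fix what can be compared. Each value is a linear ratio, and within arrays 1, 2 and 3 the middle array of every probe set equals 1, as it does within arrays 4, 5 and 6. These are called set 1 and set 2. A difference between arrays of a set does not depend on that scaling, whereas a difference between the sets, and any level of a transcript, is lost. Uninjured array 7 reads 1 for every probe set and was left out. Values are given as log2 ratios, so that 1 is a 2-fold difference from the middle array and 0 marks the middle array itself. The range of a gene is its highest minus its lowest log2 ratio over the 3 arrays of a set. Each array is a single measurement of a pooled preparation and has no error of its own. Because levels are lost, the label of cortical axons could not be checked against axonal or glial markers. Fewer cells of a type and less RNA per cell cannot be told apart in bulk material of this kind.

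Axons keep a selected pool of messenger RNAs far from the cell body and translate part of it locally. Transcripts for ribosomal proteins, for mitochondrial enzymes of oxidative phosphorylation and for the cytoskeleton are prominent in that pool, while the machinery of cell division and of splicing works in the nucleus and is not a feature of an axon. A glial cell or a stray cell body in an axonal chamber would bring its own transcripts with it.

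Preparation 1 differed from its set by low transcripts, and preparation 4 from its set by high ones. In array 1, 227 of 14217 genes (1.60%) lay at least 2-fold below the middle array and 14 lay as far above it. In array 4, 282 genes (1.98%) lay at least 2-fold above the middle array and 11 below it. Array 3 had 83 genes above and 8 below, and array 2 had 13 and 1. Array 5 was mixed, with 34 genes above and 57 below, and array 6 had 23 on either side. Array 1 was the array farthest from the middle one for 5714 genes (40.2%) of set 1, and array 4 for 5374 genes (37.8%) of set 2.

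**Figure D1:**
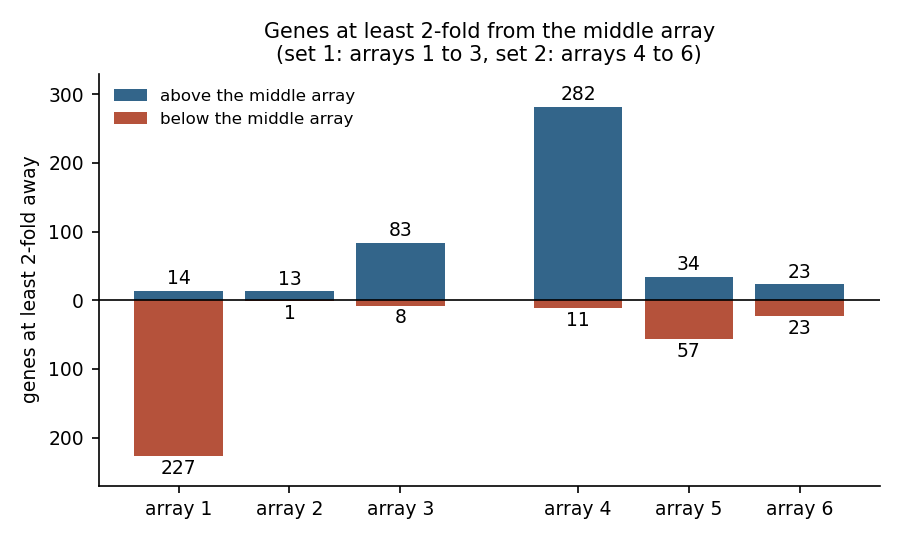
Number of genes (vertical axis) at least 2-fold above (blue, upward) or below (red, downward) the middle array of their set, for each of the 6 arrays. Array 1 has 227 genes below and array 4 has 282 genes above, more than any other array in that direction.

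The pairwise differences show the same order. The SD over genes of the log2 difference was 0.29 between arrays 2 and 3, 0.37 between arrays 1 and 2 and 0.44 between arrays 1 and 3. In set 2 it was 0.35 between arrays 5 and 6, 0.43 between arrays 4 and 6 and 0.46 between arrays 4 and 5. Arrays 2 and 3 differed at least 2-fold in 135 genes, and arrays 4 and 5 in 580. The differences between arrays of set 1 and those between arrays of set 2 were nearly unrelated across the 14217 genes, with r from -0.07 to 0.07 over the 9 combinations of pairs, which are not independent because pairs share arrays.

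A gene typically varied little. The median range was 0.28 in set 1, which is 1.22-fold, and 0.34 in set 2, which is 1.27-fold. A range of at least 2-fold was found for 583 genes in set 1 (4.10%) and for 868 genes in set 2 (6.11%). With array 1 left out the count of set 1 was 135, and with array 3 left out it was 307. With array 4 left out the count of set 2 was 230, and with array 5 left out it was 490. The threshold of 1 on the log2 scale ran between Lrrc73 (0.9987) and Polr2g (1) in set 1 and between Slc7a3 (0.9997) and Pom121 (1.0017) in set 2.

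The sequences around the annotated gene starts are shown first, because the genes that were lowest in array 1 include ribosomal protein genes and Eef1a1. The messenger RNAs of such genes are known to open with a run of pyrimidines (C or T). Through this feature cells control the translation of ribosomal proteins and elongation factors as a class. Each line holds 15 bases before and 15 bases from the first base of the gene, 5′ to 3′ on the gene's strand, from RefSeq on the GRCr8 assembly, and capitals mark the longest run of C or T in the window. The first 5 genes are the ribosomal protein genes lowest in array 1 among those with a sequence, Eef1a1 is the elongation factor that brings aminoacyl-tRNA to the ribosome, and the last 4 are the genes highest in array 4 among those with a sequence.
Rpl4: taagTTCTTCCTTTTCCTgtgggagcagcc
Rplp0: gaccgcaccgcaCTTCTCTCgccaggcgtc
Rpl6: taTTTTTacatcactagatggcgggtgaaa
Rps9: tccggcggccacgTTTCTCTTTgtcacggg
Rps3a: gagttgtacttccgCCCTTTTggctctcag
Eef1a1: tcgccttggacgTTCTTTTTCgcaacgggt
Fabp7: ctgctgaggtgcaaaggagTTTTgtgaatt
Ppp1cc: gccgctgcaCTCCCgcgcgcgcatccgtgc
Pdgfra: ggTTTTgagcccattactgttggagcttga
Slc35d3: CCCgagagccgacacgggtgggcgctggat
The windows lie at chr8:73566462-73566491 on the plus strand (Rpl4), chr12:46718376-46718405 on the minus strand (Rplp0), chr12:41011676-41011705 on the minus strand (Rpl6), chr1:74430423-74430452 on the minus strand (Rps9), chr2:173827028-173827057 on the minus strand (Rps3a), chr8:88225055-88225084 on the minus strand (Eef1a1), chr20:37669591-37669620 on the plus strand (Fabp7), chr12:40061287-40061316 on the minus strand (Ppp1cc), chr14:33408502-33408531 on the minus strand (Pdgfra) and chr1:16392766-16392795 on the minus strand (Slc35d3).
The run was 14 bases long in Rpl4, 9 in Rps9 and Eef1a1, 8 in Rplp0 and 7 in Rps3a, but 5 in Rpl6, and it was 3 to 5 bases long in the genes highest in array 4. A run of at least 7 C or T was present in 28 of 38 ribosomal protein windows (73.7%) and in 1970 of 11733 windows of all measured genes (16.8%). On the other strand the shares were 1 of 38 (2.63%) and 18.1%. The 38 windows are those of ribosomal protein genes whatever their value in array 1. Of all genes at least 2-fold below the middle in array 1, 54 of 197 windows (27.4%) held such a run. Without the ribosomal proteins it was 41 of 179 (22.9%), and of the genes at least 2-fold above the middle in array 4, 52 of 232 (22.4%). A match is a description of these letters, and other windows of these genes were not searched.

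Of 30 gene lists, ribosomal proteins had the largest share of variable members in set 1, and they hardly varied in set 2. Of 43 cytosolic ribosomal protein genes measured, 20 (46.5%) had a range of at least 2-fold in set 1, against 4.10% of all genes, and 0 of 43 in set 2, against 6.11%. Their median range was 0.72 in set 1 and 0.11 in set 2, where all genes had 0.28 and 0.34. Array 1 was the lowest array for 31 of 43 (72.1%), against 36.6% of all genes, and at least 2-fold below the middle for 19. With array 1 left out, 1 of 43 still had a 2-fold range.

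Rpl4, a protein of the large subunit, had log2 ratios of -3.97, 0 and 1.05 in arrays 1, 2 and 3, a range of 5.02 or 32.4-fold. In set 2 its log2 ratios were 0, -0.01 and 0.22, a range of 0.24. Array 1 alone was far below its partners, and the arrays of set 2 lay close together. Rplp0, which forms the stalk that recruits translation factors, had -3.25, 0 and 0.56 in set 1 and 0, 0.09 and -0.02 in set 2. Rpl6, another large subunit protein, had -3.12, 0 and 0.74 in set 1 and -0.03, 0 and 0.12 in set 2. The small subunit protein Rps9 had -2.86, 0 and 0.49 in set 1 and stayed within 0.08 in set 2. Both subunits were involved: 6 of 14 small subunit genes and 14 of 29 large subunit genes had a 2-fold range in set 1. Not every member was low, since the highest value of a ribosomal protein gene in array 1 was 0.52. Members named here beyond the widest genes of each set, and every subdivision of a list, were picked after their values had been seen.

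The factors that feed the ribosome varied beside it. Of 32 translation factors, 10 (31.2%) had a range of at least 2-fold in set 1 and 3 (9.38%) in set 2. Eef1a1 had log2 ratios of -2.77, 0 and 1.03 in set 1 and -0.03, 0 and 0.17 in set 2, and both of its probe sets were lowest in array 1 (-2.04 and -3.50). Eef1b2 and Eef1g, its exchange factor partners, stood at -2.02 and -1.57 in array 1. Of the 11 subunits of the initiation complex eIF3, 4 had a 2-fold range in set 1, among them Eif3m with -2.09, 0 and 1.49, and 0 of 11 did in set 2. Array 1 was low and array 3 high in Eif3m, so its range came from both ends. Without array 1, 5 of the 32 translation factors still had a 2-fold range. The mitochondrial ribosomal proteins, which serve a separate ribosome, varied in both sets, with median ranges of 0.54 and 0.56. A 2-fold range was found for 13 of 73 (17.8%) in set 1, against 4.10% of all genes, and for 9 of 73 (12.3%) in set 2, against 6.11%. Array 1 was the lowest array for 46 of these 73, against 36.6% of all genes, with a median of -0.18. Their share was below that of the cytosolic ribosomal proteins in set 1 and above it in set 2.

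Enzymes of oxidative phosphorylation followed. Of 69 genes of the respiratory chain and ATP synthase, 25 (36.2%) had a range of at least 2-fold in set 1 and 5 (7.25%) in set 2, with median ranges of 0.76 and 0.25. Array 1 was the lowest array for 57 of 69 (82.6%), against 36.6% of all genes, and array 3 the highest for 53 of 69 (76.8%), against 33.9%. With array 1 left out, 1 of 69 kept a 2-fold range, and with array 3 left out, 15 did. Atp5f1c, the gamma subunit of the rotor of ATP synthase, had log2 ratios of -3.19, 0 and 1.09 in set 1, a 19.5-fold range, and 0.22, -0.08 and 0 in set 2. Ndufa8 of complex I had -2.49, 0 and 0.71 in set 1 and a range of 0.23 in set 2. The pattern was spread over the complexes, with 12 of 35 genes of complex I, 0 of 4 of complex II, 2 of 8 of complex III, 4 of 9 of complex IV and 7 of 13 of ATP synthase past 2-fold in set 1. In set 2 array 5 was the lowest array for 46 of 69 (66.7%), against 32.3% of all genes, by a small margin (median -0.05). Atp5pb, of the stalk of ATP synthase, was 2-fold in both sets, with -0.74, 0 and 0.63 in set 1 and 0.25, -1.34 and 0 in set 2. Only 2 genes of mitochondrial DNA were measured, with a median of -0.48 in array 1.

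**Figure D2:**
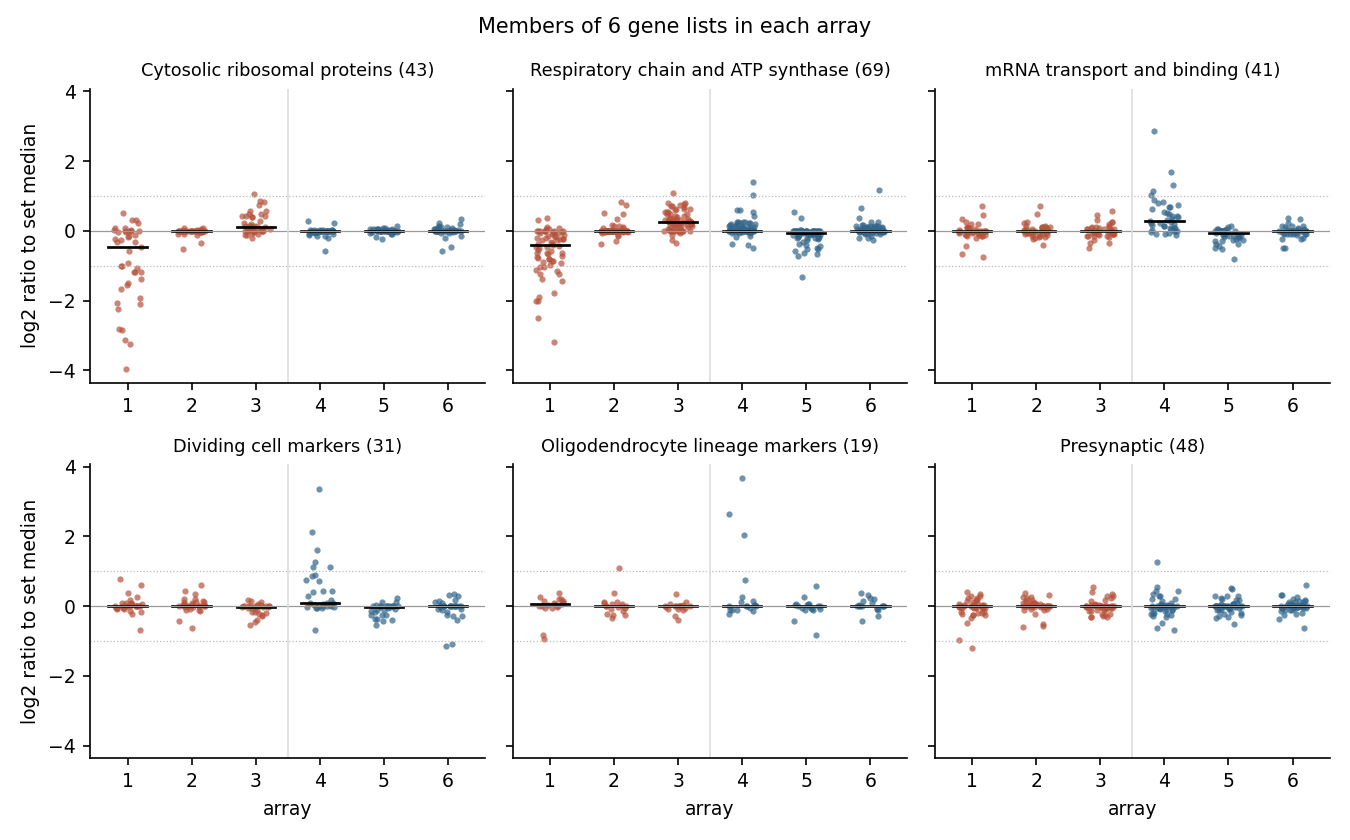
Log2 ratio to the set median (vertical axis) of every measured member of 6 gene lists in each array (horizontal axis), with the number of members in brackets. Points are genes, red for set 1 and blue for set 2, black lines are list medians and dotted lines mark 2-fold. Ribosomal and respiratory genes reach -3.97 and -3.19 in array 1, single respiratory genes also lie low in array 5 (lowest -1.34), and RNA-binding, dividing cell and oligodendrocyte genes spread upward in array 4.

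Genes of protein turnover and the cytoskeleton also varied in set 1. Of 34 proteasome and ubiquitin genes, 9 (26.5%) were past 2-fold in set 1 and 4 (11.8%) in set 2. Psmb4, a subunit of the proteasome core, had -2.34, 0 and 0.95 in set 1 and a range of 0.15 in set 2. Of 40 genes of microtubules and neurofilaments, 9 (22.5%) were past 2-fold in set 1 and 4 (10.0%) in set 2. All 4 stathmins, which bind tubulin dimers, were past 2-fold in set 1 and 0 of 4 in set 2. Stmn2, a stathmin of growing axons, had log2 ratios of -1.72, 0 and 1.21 in set 1 and -0.05, -0.05 and 0.21 in set 2. It was 7.58-fold apart between arrays 3 and 1, and its 2 probe sets had ranges of 2.82 and 3.03. The beta-tubulins Tubb2a and Tubb2b stood at -1.69 and -1.41 in array 1 and had ranges of 0.54 and 0.17 in set 2. Among 32 motor genes, 5 (15.6%) were past 2-fold in set 1, led by the dynein light chain Dynlrb1 at -2.60 and the kinesin heavy chain Kif5c at -1.84 in array 1.

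The genes low in array 1 were also short. Those at least 2-fold below the middle in array 1 had a median genomic length of 12.6 kb, against 22.3 kb for all measured genes, 26.1 kb for the genes at least 2-fold above the middle in array 4 and 3.43 kb for ribosomal protein genes. The GC content around the gene start differed little, with medians of 59.3%, 61.7% and 60.0% for the array 1 group, the array 4 group and all genes. Over the array 1 group the median log2 ratio was -1.44 in array 1, by which the group was chosen, 0 in array 2 and 0.39 in array 3. Once array 1 is lowest, the scaling leaves another array at or above the middle, and by these medians it was array 3.

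Array 3 held the high end of set 1 for some genes of its own. The widest gene of set 1 was Arxes1, with -2.28, 0 and 2.78 in arrays 1, 2 and 3, a 33.3-fold range shared between a low array 1 and a high array 3. It was also past 2-fold in set 2, with 0.19, -1.10 and 0. Gyg1, which primes glycogen synthesis, stood at 2.29 in array 3, and Ufm1, a ubiquitin-like modifier, at 2.14. The gene 4930522L14Rikl had the lowest value of any gene in any of the 6 arrays, -4.11 in array 1, with 0 and 0.32 in arrays 2 and 3 and a range of 0.38 in set 2.

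**Figure D3:**
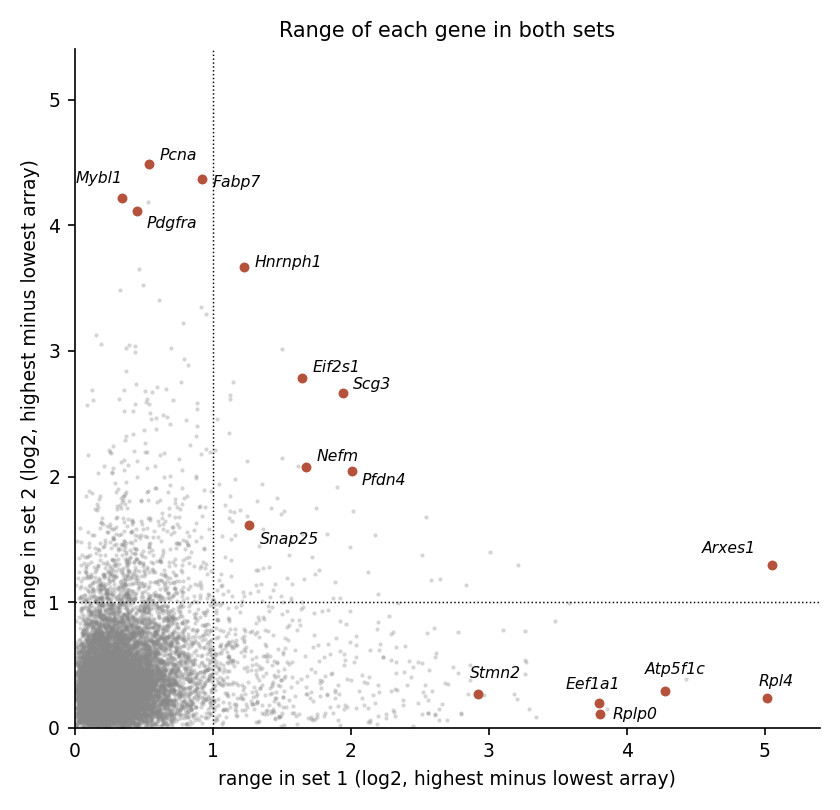
Range of each of 14217 genes in set 1 (horizontal axis) and set 2 (vertical axis), both as log2 of highest over lowest array, with dotted lines at 2-fold and some named genes in red. Rpl4 and Atp5f1c lie along the horizontal axis, Pcna and Fabp7 along the vertical axis, and few genes are wide in both sets.

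Set 2 was led by other transcripts. The widest was Pcna, the sliding clamp of DNA replication, with log2 ratios of 3.35, 0 and -1.14 in arrays 4, 5 and 6, a 22.4-fold range. In set 1 its log2 ratios were 0.10, 0 and -0.44. Fabp7, a fatty acid binding protein of radial glia and immature astrocytes, had 3.87, -0.50 and 0 in set 2 and 0.86, 0 and -0.06 in set 1. Mybl1, a transcription factor of the Myb family, had 4.19, 0 and -0.03 in set 2 and stayed within 0.34 in set 1. In these genes array 4 stood far above both of its partners, which differed from each other by 1.14 at most.

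Ppp1cc, a catalytic subunit of protein phosphatase 1, had 3.74, 0 and -0.45 in set 2 and a range of 0.53 in set 1. Pdgfra, the growth factor receptor that marks oligodendrocyte precursors, had 3.68, -0.43 and 0 in set 2 and a range of 0.45 in set 1. Slc35d3, a member of the nucleotide sugar transporter family, had 3.51, 0 and -0.01 in set 2. Hnrnph1, an RNA-binding protein of splicing, differed in its shape: 1.83 in array 4, -1.84 in array 5 and 0 in array 6, so its 12.7-fold range came from opposite ends.

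Transcripts of nuclear and RNA-binding proteins were often highest in array 4. Of 41 genes of mRNA transport and binding, 7 (17.1%) were past 2-fold in set 2 and 0 in set 1, with a median of 0.30 in array 4 and array 4 the highest array for 31 of 41 (75.6%), against 32.0% of all genes. With array 4 left out, 0 of 41 were past 2-fold, and with array 5 left out, 4. Hnrnpr stood at 2.86, 0 and -0.49 in arrays 4, 5 and 6. Of 17 genes with Hnrnp symbols, 9 (52.9%) were past 2-fold in set 2 and 2 in set 1. Of 44 splicing genes, 8 (18.2%) were past 2-fold in set 2 and 2 (4.55%) in set 1. Their median in array 4 was 0, and array 4 was the highest array for 21 of 44 (47.7%), against 32.0% of all genes. Array 5 was the lowest array for 24 of 44 (54.5%), against 32.3% of all genes. The splicing factor Tra2b stood at 2.89 in array 4, with 2.48 and 3.30 in its 2 probe sets, and the RNA helicase Ddx5 at 1.93 in array 4 and -1.19 in array 5. The chromatin protein Hmgn2 was past 2-fold in both sets, with 2.11, -0.34 and 0 in set 2 and -0.56, 0.47 and 0 in set 1.

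Transcripts of dividing cells were among those high in array 4. Of 31 dividing cell markers, 9 (29.0%) were past 2-fold in set 2 and 1 (3.23%) in set 1, and array 4 was the highest array for 21 of 31 (67.7%), against 32.0% of all genes. The list's median in array 4 was 0.10, with members from -0.69 to 3.35. Without array 4, 2 of 31 were past 2-fold. The replicative helicase subunit Mcm7 stood at 2.13 in array 4 and the mitotic kinase Cdk1 at 1.62, while Mki67, the usual proliferation marker, stood at 0.45. Of the 6 helicase subunits Mcm2 to Mcm7, 3 were past 2-fold in set 2 and 0 in set 1. Ccna2, a cyclin of S phase and mitosis, was past 2-fold in both sets, with 0, 0.60 and -0.54 in set 1 and 0.41, 0 and -1.09 in set 2.

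Markers of other cell types differed unevenly beside these genes. Of 19 oligodendrocyte lineage markers, 4 (21.1%) were past 2-fold in set 2 and 1 (5.26%) in set 1. In array 4, Pdgfra stood at 3.68, the transcription factor Olig1 at 2.64 and Bcas1, a gene of newly forming oligodendrocytes, at 2.03. The list's median in array 4 was 0, and Olig2, Sox10, Cspg4 and Mbp stood there at 0.03, 0, 0.13 and -0.12. Of 26 astrocyte markers, 2 (7.69%) were past 2-fold in set 2, Fabp7 and Vim, and the median in array 4 was 0. Only 1 member, Fabp7, lay at least 2-fold above the middle in array 4, while Vim stood at -1.12 in array 5. Gfap, the astrocyte intermediate filament, had 0.45, -0.06 and 0 in set 2 and 0.16, 0 and -0.07 in set 1. Ptprz1, a receptor phosphatase of glial precursors, stood at 2.91, -0.13 and -0.11 in arrays 4, 5 and 6. Of 23 microglia and macrophage markers, 1 was past 2-fold in either set, the mannose receptor Mrc1, with -0.28, 0 and 0.78 in set 1 and 0, -0.80 and 0.33 in set 2. The microglia list ran from -0.53 to 0.09 in array 4, with a median of -0.04. Of 30 vascular, fibroblast and blood markers, 0 were past 2-fold in either set. The part of glial or dividing cells in the high genes of array 4 was not tested.

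Markers of excitatory neurons had no common direction. Of 24, 4 (16.7%) were past 2-fold in each set, and the list's median was 0 in arrays 1 and 4. In array 4 the list ran from -1.14 to 0.62, and array 4 was the lowest array for 10 of 24 (41.7%), against 38.9% of all genes. The 2 members at least 2-fold below the middle in array 4 were Mef2c and Nrn1. The transcription factor Mef2c had -1.14, 0 and 0.80 in set 2, and the activity-regulated protein Nrn1 had -1.03, 0 and 0.24. Nrn1 was also past 2-fold in set 1, with 0.18, 0 and -1.19. In array 1 the list ran from -1.83 (Crym) to 0.81, with Neurod6 at -1.53 as the other member at least 2-fold below the middle. Array 1 was the lowest array for 10 of 24 (41.7%), against 36.6% of all genes, and the highest for 9 (37.5%), against 36.4%. Slc17a7, the vesicular glutamate transporter, had ranges of 0.17 and 0.23. Of 17 interneuron markers, 1 was past 2-fold in each set, Cck in set 1 and Tac1 in set 2, both neuropeptides.

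Protein folding varied in both sets, and sterol synthesis had the larger share in set 2. Of 28 chaperones, 9 (32.1%) were past 2-fold in set 2, against 6.11% of all genes. In set 1 it was 6 (21.4%), against 4.10% of all genes, with 0 in both sets. The ring chaperonin that folds actin and tubulin had 5 of 8 subunits past 2-fold in set 2, and array 4 was the highest array for all 8. Cct4, one of its subunits, stood at 1.28, -1.33 and 0 in arrays 4, 5 and 6. Prefoldin, which hands proteins to the chaperonin, had 4 of 5 subunits past 2-fold in set 1 and 1 in set 2. Of 42 secretory pathway genes, 9 (21.4%) were past 2-fold in set 2 and 5 (11.9%) in set 1. The chaperone Hspa5 stood at 2.33 in array 4 and Kdelr2, which returns proteins to the reticulum, at 2.63. Of 18 cholesterol synthesis genes, 5 (27.8%) were past 2-fold in set 2 and 2 (11.1%) in set 1, with a median of 0.32 in array 4. Msmo1 and Sqle, enzymes of the pathway, stood at 2.55 and 1.92 in array 4.

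Array 6 was set apart by few genes. Egr1, an immediate early transcription factor induced by activity, had 1.82, 0 and -1.84 in arrays 4, 5 and 6, a range of 3.65, and a range of 0.47 in set 1. It was 1 of 2 immediate early genes of 36 past 2-fold in set 2, and 1 of 36 was past it in set 1. The lowest gene in array 6 was Ifitm1 at -2.04, and the highest Cdc42ep3 at 1.60. In array 5 the lowest was the deubiquitinase Usp12 at -2.02 and the highest the death receptor Tnfrsf21 at 2.07.

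**Figure D4:**
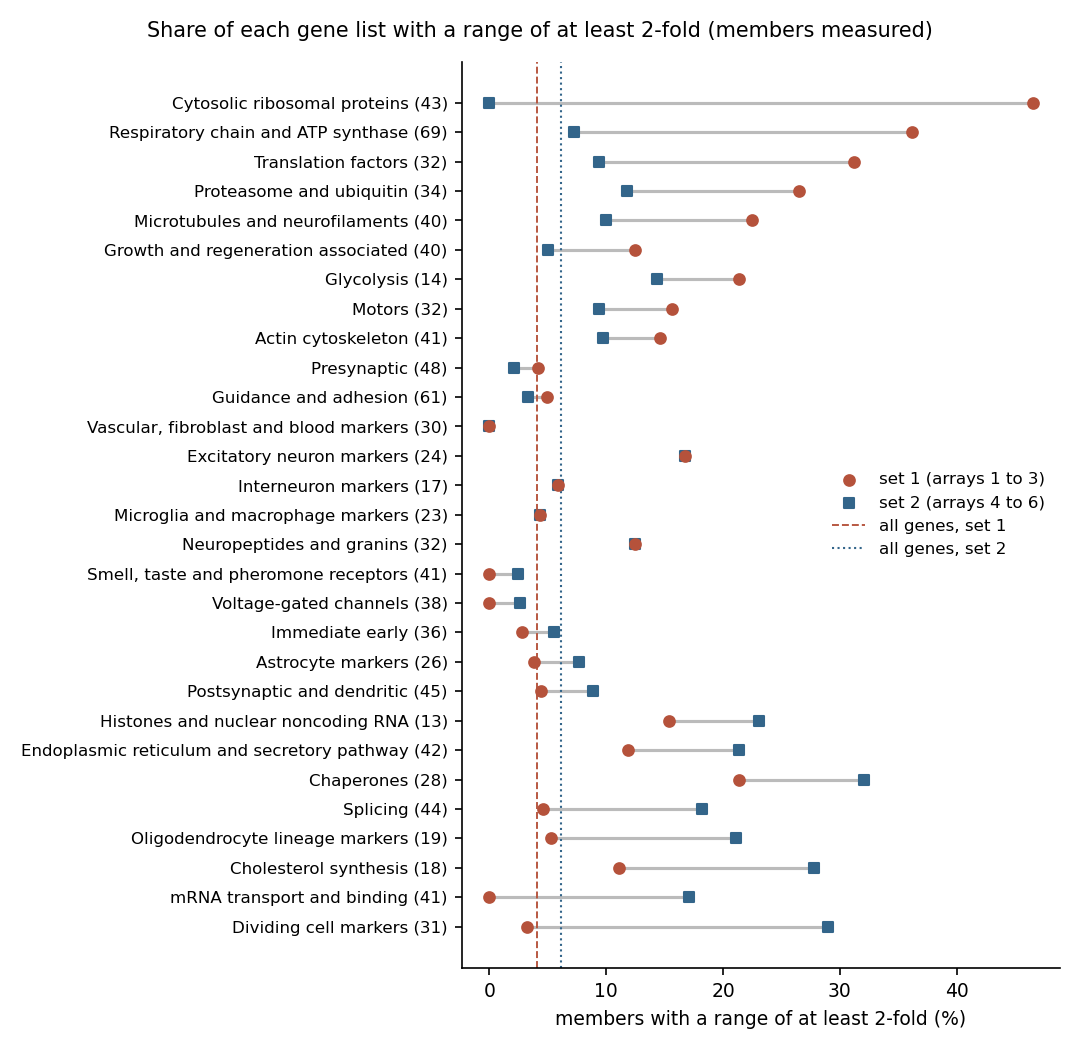
Share of members with a range of at least 2-fold (horizontal axis, percent) for each gene list with at least 10 measured members, red circles for set 1 and blue squares for set 2. The vertical lines give the share of all genes, 4.10% in set 1 and 6.11% in set 2. Ribosomal, respiratory and translation factor genes have high shares in set 1, and chaperone, dividing cell and cholesterol genes in set 2. The share of chaperones also lies above that of all genes in set 1.

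The genes that varied in the sets were mostly different ones, with an overlap above the share of all genes. Of the 583 genes past 2-fold in set 1, 98 (16.8%) were also past 2-fold in set 2, against 6.11% of all genes. Read from set 2, 98 of 868 (11.3%) were past 2-fold in set 1, against 4.10%. These 98 are 0.689% of all genes. The widest 5% of genes, 711 in each set, shared 99 members between the sets, which is 13.9% of either list. Spearman's rho between the ranges was 0.19 across 14217 genes, which share the array design and the amplification and are not independent. The count of 98 was 34 without array 1, 39 without array 3, 43 without array 4 and 42 without array 5. The share of the widest 5% was 15.6% without array 1, 14.5% without array 4 and 15.6% without both. This share was therefore as large without the arrays that stood apart, although array 1 was the farthest array for 66.2% of the 2-fold genes of set 1 and array 4 for 55.9% of those of set 2. Spearman's rho did fall, to 0.1351 without array 1, 0.1497 without array 4 and 0.1152 without both. It was also lower without array 3 (0.1219) or array 5 (0.1203).

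The array 1 and array 4 groups supplied part of the overlap. Of the 227 genes at least 2-fold below the middle in array 1, 17 (7.49%) were past 2-fold in set 2, near the 6.11% of all genes. Of the 282 genes at least 2-fold above the middle in array 4, 21 (7.45%) were past 2-fold in set 1, against 4.10%. The groups had 4 genes in common, where 1.98% of all genes were in the array 4 group. As a base, 339 of the 583 genes past 2-fold in set 1 had array 1 as the farthest array and below the middle. For set 2, 434 of the 868 genes past 2-fold had array 4 as the farthest and above it. Among the 98 genes past 2-fold in both sets these patterns were less frequent, at 36 (36.7%) and 32 (32.7%), and 12 genes had both. Snap25, a core protein of vesicle fusion, was among these 12, with -0.98, 0 and 0.28 in set 1 and 1.26, 0 and -0.36 in set 2. So was Eif2s2, a subunit of the initiation factor eIF2, with -1.35, 0 and 1.17 in set 1 and 1.04, -0.33 and 0 in set 2.

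The genes widest in both sets differed in which array lay at the end. Pfdn4, a prefoldin subunit, had -0.81, 1.20 and 0 in set 1 and 2.00, 0 and -0.05 in set 2, and a range of at least 4.02-fold in either set. Scg3, a granin that sorts cargo into secretory granules, had -0.93, 1.01 and 0 in set 1 and 2.12, -0.54 and 0 in set 2. Rbm3, a cold-induced RNA-binding protein, had -1.35, 0.55 and 0 in set 1 and 0, -1.49 and 0.42 in set 2. Array 1 was low in all 3 of these genes, while array 4 was high in Pfdn4 and Scg3 and array 5 was low in Rbm3.

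Nefm, the medium neurofilament subunit that sets axon calibre, differed from the stathmins and tubulins named above, with 1.19, 0 and -0.48 in set 1 and -0.72, 1.36 and 0 in set 2. It was high in array 1, which was the lowest array for 22 of the 40 microtubule and neurofilament genes and the highest for 8, and in set 2 the list had medians of 0 in all 3 arrays. Eif2s1, the eIF2 subunit whose phosphorylation slows translation, had -0.55, 1.10 and 0 in set 1 and 0.87, -1.91 and 0 in set 2. The signalosome subunit Cops5 had -2.01, 0 and 0.53 in set 1 and 1.34, -0.34 and 0 in set 2. Array 1 was low in Cops5 and in Eif2s1, while the low end of set 2 was array 5 in both.

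Usp14, a deubiquitinase of the proteasome, had -0.67, 0 and 1.08 in set 1 and 0.24, -1.51 and 0 in set 2. Usp12, another deubiquitinase, had -0.38, 0 and 1.24 in set 1 and 0.06, -2.02 and 0 in set 2. Both were highest in array 3 and lowest in array 5. Iftap, Zbtb44, Rars1 (arginyl-tRNA synthetase) and Depdc1 completed the 12 genes with the widest smaller range, from 2.89-fold in Depdc1 to 3.31-fold in Iftap. Each of the 12 genes is read by 1 probe set.

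**Figure D5:**
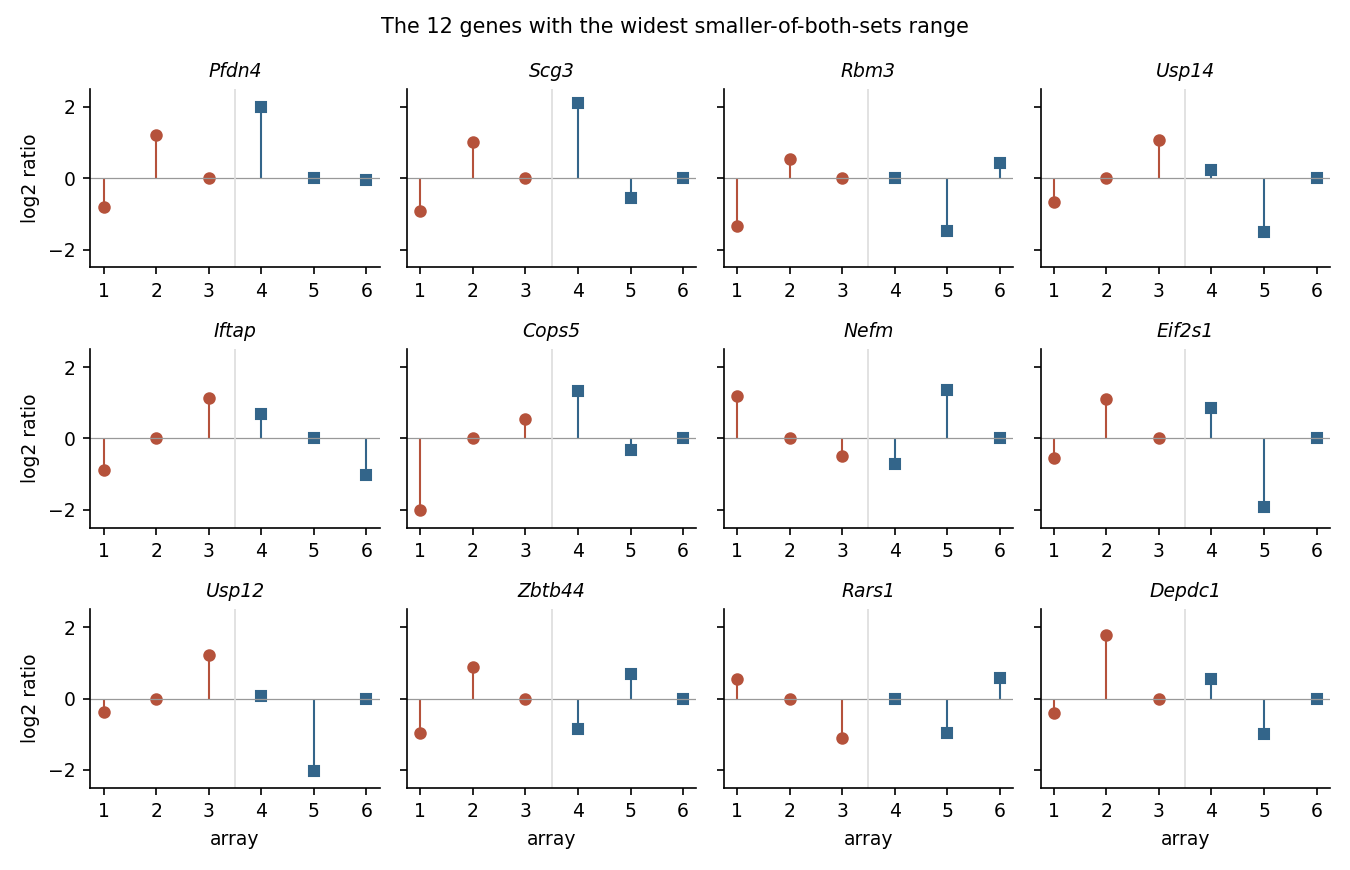
Log2 ratio (vertical axis) of the 12 genes with the widest smaller-of-both-sets range in arrays 1 to 6 (horizontal axis), red circles for set 1 and blue squares for set 2. Every one of these genes spans at least 2.89-fold in each set, but the array at the extreme differs from gene to gene.

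A fit of the variances across all genes called no gene. The residual variance of each gene about its set mean was set against an F distribution fitted over all genes with limma, and 0 of 14217 genes (0%) had an adjusted p under 0.05, with 0.822 as the smallest. At an unadjusted p under 0.05 there were 779 of 14217 genes. The distribution was fitted to these same variances, so a share near 0.05 is built in and this count is no result about the genes. Rpl4 had the smallest p (0.000845), followed by Arxes1 (0.000869), 4930522L14Rikl (0.00105), Fabp7 (0.00109) and Mybl1 (0.00112), with an adjusted p of 0.822 for each by limma's variance fit. The fit had 4 residual degrees of freedom per gene and 3.31 prior degrees of freedom, which stand for a wide spread of variances over genes. With these it cannot separate single genes after adjustment, and the count of 0 says nothing about how stable a gene is. Fitted in each set alone, limma also called 0 genes, with a smallest adjusted p of 0.459 in set 1 and 0.977 in set 2. Looked up across sets, 102 of the 762 genes with an unadjusted p under 0.05 in set 1 (13.4%) were also under it in set 2, where 4.52% of all genes were. From set 2, 102 of 643 (15.9%) were under it in set 1, against 5.36%.

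Several groups of neuronal genes had shares near or below those of all genes, which were 4.10% in set 1 and 6.11% in set 2. Of 48 presynaptic genes, 2 (4.17%) were past 2-fold in set 1, Snap25 and Napb, and 1 (2.08%) in set 2, Snap25 again. The synaptic vesicle proteins Syn1 and Syp had ranges of at most 0.18 in either set. Of 38 voltage-gated channels, 0 and 1 (2.63%) were past 2-fold, and of 61 guidance and adhesion genes, 3 (4.92%) and 2 (3.28%). Of 45 postsynaptic and dendritic genes, 2 (4.44%) and 4 (8.89%) were past 2-fold, the share in set 2 lying above that of all genes. Among them were the glutamate receptor subunits Gria2 and Gria3 in set 2. Among 41 receptors for smell, taste and pheromones, which serve as a group not expected in cortex, 0 and 1 were past 2-fold. Background and expression cannot be told apart in ratios, so a narrow range may belong to a transcript that was steady or to one that was not measured above background. The genes with the narrowest larger range were Pitpnc1, Mlycd, Iffo1, Atosa, Klhl22 and Vrk3, at 1.01- to 1.02-fold.

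Most lists lay above the share of all genes, 22 of 30 in set 1 and 19 of 30 in set 2, so a share somewhat above that background is common to chosen lists. Of 14 glycolytic genes, 3 were past 2-fold in set 1 (Aldoa, Tpi1 and Pgk1) and 2 in set 2 (Gpi and Pfkp). Of 41 genes of the actin cytoskeleton, 6 and 4 were, with Arpc3, a subunit of the complex that branches actin filaments, in both. Of 32 neuropeptides and granins, 4 were past 2-fold in each set, with Scg3 in both. Of 40 growth and regeneration associated genes, 5 and 2 were, and of 13 histones and nuclear noncoding RNAs, 2 and 3.

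The axonal and neuronal genes chosen for their known roles differed among themselves. Syt1, the calcium sensor of vesicle release, had 0, 0.05 and -0.02 in set 1 and -0.61, 0.06 and 0 in set 2. Nefl, the light neurofilament subunit, had ranges of 0.18 and 0.25, and Camk2a, a kinase with dendritic messenger RNA, 0.31 and 0.32. Bdnf, a secreted growth factor, had 0.32 and 0.30. Tubb3, the neuronal beta-tubulin, had 0.47 and 0.54, Mapt, the axonal tau protein, 0.46 and 0.25, and the kinesin Kif5a 0.60 and 0.60. These are means over probe sets for all but Syt1, and single probe sets were past 2-fold in set 1 for Tubb3 (1.20), Mapt (1.46) and Kif5a (1.66) and in set 2 for Kif5a (1.34).

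Gap43, a growth cone protein, had -0.92, -0.07 and 0.40 in set 1 and 0, -0.05 and 0.15 in set 2. Its 2 probe sets also differed: one read -1.83, 0 and 0.78 in set 1, and the other 0, -0.14 and 0.03. Map2, a microtubule protein of dendrites, had -0.25, 0 and 0.69 in set 1 and 0.52, -0.90 and 0 in set 2, with ranges of 0.61 and 2.49 for its 2 probe sets in set 1. Such splits were common. Of 4525 genes with several probe sets, 488 had at least 1 probe set past 2-fold in set 1, and in 24 of them (4.92%) every probe set was. In set 2 the counts were 863 and 45 (5.21%). Averaging lowers the range of such genes, and 5.17% of genes with 1 probe set but 1.81% of genes with several were past 2-fold in set 1, with 7.62% and 2.85% in set 2.

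The control probe sets differed by kind. The 18 hybridisation controls, which are added after labelling and report hybridisation and staining, had a median of 0.13 in array 1, where 16 of 18 were above 0 and the highest was 0.39, and a median of -0.11 in array 5. The 27 bacterial poly-A controls had medians of 0 in arrays 1, 2, 3 and 5, 0.01 in array 6 and -0.08 in array 4, where 2 of 27 were above 0. The 12 probe sets for rat control transcripts ranged from -0.74 to 0.39 in array 1, from -0.62 to 0.71 in array 3 and from -0.12 to 0.23 in array 4. In set 1 the widest of these 12 were a GAPDH probe set at the 3′ end (1.19), one in the middle of GAPDH (1.08) and one for 5S ribosomal RNA (1.01), all past 2-fold, and in set 2 the widest range was 0.41. The 3′ minus 5′ difference, a sign of RNA length after amplification, was 0.17, 0.05 and -0.16 in array 1 and 0.23, 0.10 and 0.07 in array 4 for beta-actin, GAPDH and hexokinase. In array 3 it was 0.48 for GAPDH. The part of labelling or RNA quality in the gene differences was not tested.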

How the data were processed

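Biotin-labelled, twice-amplified polyadenylated RNA was hybridised to GeneChips. The submitters' processing notes name RMA, a method that turns probe signals into 1 normalised value per probe set, with no version or settings. The deposited table holds linear ratios of 31099 probe sets on 13 arrays, and what each ratio was divided by is not given in the sources used here. In every row the middle of arrays 1 to 3 and of arrays 4 to 6 is 1, within 0.0001. Whether these sets are culture batches is not stated.

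Ratios were taken to log2. Of 31042 probe sets that are not controls, 20826 have 1 symbol in the platform annotation, 436 several and 9780 none. Probe sets of 1 symbol were averaged on the log2 scale, giving 14217 genes, 9692 of them with 1 probe set. Control probe sets were kept out of the genes. Variances were fitted with limma 3.58.1 (fitFDistRobustly, R 4.3.3) and adjusted by Benjamini and Hochberg over all genes; the procedure was also run on simulated data. Lengths and start sequences came from RefSeq tables of GRCr8.

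The genes named were the 12 with the largest smaller-of-both-sets range, the 6 widest of each set, up to 2 members per list past 2-fold in both sets, the 12 smallest p, 12 fixed genes and the 6 with the smallest larger range, with symbols of LOC, RGD or pseudogene type skipped. Others were picked after their values were seen. Arrays, gene lists and the threshold were chosen with earlier results of these data known. There are 30 lists, and no list was tested. Alternatives were single probe sets, genes with 1 probe set, array medians removed, other thresholds, the SD, a pseudocount of 0.1 and leaving out each array. The number of arrays limits the precision.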

Additional observations from a re-analysis of the deposited data

Results flagged for a closer look

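In 27 of 83 values examined over the 6 arrays, 1 array lay far from the nearest of the others for the whole spread, 13 of them medians of gene lists and 14 named genes. Chance flags about 1 in 20 groups, and more are to be expected here, because the middle array of each set is 0 by construction and the named genes were picked for wide ranges.

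Array 1 lay lowest for Rpl4 (-3.97), 4930522L14Rikl (-4.11), Atp5f1c (-3.19), Rpl6 (-3.12), Rplp0 (-3.25) and Gap43 (-0.92), for Vrk3 by a very small amount (-0.0331), and for the medians of ribosomal proteins (-0.46) and of the 2 genes of mitochondrial DNA (-0.48). It lay highest for the medians of voltage-gated channels (0.0386) and oligodendrocyte lineage markers (0.0578).

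Array 4 lay highest for Pcna (3.35), Fabp7 (3.87), Mybl1 (4.19), Ppp1cc (3.74), Pdgfra (3.68) and Slc35d3 (3.51), and for the medians of cholesterol synthesis (0.32), mRNA transport and binding (0.30), histones and nuclear noncoding RNA (0.31) and dividing cell markers (0.10). It lay lowest for Syt1 (-0.61) and for the medians of microglia and macrophage markers (-0.0401) and of receptors for smell, taste and pheromones (-0.0894).

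Array 2 lay lowest for the median of guidance and adhesion genes (-0.0045), array 5 for that of splicing genes (-0.0716), and array 6 lay highest for that of excitatory neuron markers (0.14). These medians are far inside the range of single members.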

How the results depend on the processing

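Every array's median was already 0, so removing it was no test, and no gene of arrays 1 to 6 was at the table's lowest value. With each probe set on its own, 1625 (set 1), 2509 (set 2) and 411 (both) were past 2-fold, and the shared share was 17.3%. At 1.5-fold the counts were 2039, 3013 and 784, and at 3-fold 212, 221 and 9. With 1 array left out, the counts ran from 135 to 489 in set 1, from 230 to 580 in set 2 and from 34 to 76 in both, and the shared share from 11.0% (without array 5) to 15.6%. Leaving out arrays 1 and 4 together, an alternative chosen after seeing the data, gave 135, 230 and 18. The widest 1% shared 2.11% and the widest 10% shared 23.9%. Over all single probe sets, array 1 was farthest in 40.4% and array 4 in 36.4% (40.2% and 37.8% of all genes), and among 2-fold genes alone in 66.2% and 55.9%. With 1 array left out, list counts ran from 1 to 20 (ribosomal), 1 to 24 (respiratory), 0 to 7 (mRNA binding) and 2 to 8 (dividing cells), and with members of 1 probe set the mRNA binding count was 4 of 15. Limma's variance fit called 0 genes under each alternative (703 to 814 at an unadjusted p under 0.05 with 1 array left out). No paired analysis was possible because the 6 arrays belong to 1 group and no groups were compared. Signal over background is lost in ratios, 3 arrays a set limit every range, and culture batch and set cannot be told apart from these labels.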
